A study of Rattus norvegicus with 6 samples.

Results

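Fibrillins and their relatives are secreted matrix proteins, and 10 of their genes are described here among the 32883 gene entries of the deposited table. They are the fibrillin genes Fbn1 and Fbn2, the latent TGF-β binding protein genes Ltbp1, Ltbp2, Ltbp3 and Ltbp4, the microfibril-associated genes Mfap2 and Mfap4, and Efemp1 and Efemp2 of the fibulin family. The set was chosen by family membership around Fbn2, which was picked for the smallest p-value in the comparison of ZJU-37 with DMSO. That comparison is therefore given for the 10 genes as a description and not as a test.

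Primary oligodendrocyte precursor cells (OPCs) were shaken off mixed cultures of cerebral cortex from newborn (P0) Sprague Dawley rats. The ZJU-37 group received ZJU-37, an inhibitor of the kinase RIPK1 made by adding an amide bond to Nec-1s, at 5 μM, and the DMSO group received the same volume of solvent. The sample labels give 36 h of treatment, and the study's methods give a shorter time. Poly-A RNA was sequenced from 3 libraries per group. The study calls the libraries biological repeats in one place and plate wells in another, so p-values measure the spread between these libraries, which may be technical. The smallest library held 13935865 counts and the largest 24097927, so that a floor of 3 counts equals 0.124 to 0.215 CPM (counts scaled by library size), which covers counting error alone.

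All 6 OPC markers examined (Pdgfra, Cspg4, Sox10, Olig1, Olig2 and Ptprz1) were detected, with a summed level of 939.5 to 1102 FPKM (fragments scaled by gene length and library size) in the DMSO libraries and 1118 to 1543 FPKM in the ZJU-37 libraries. Of the 6, 4 (Pdgfra, Cspg4, Olig1 and Ptprz1) were higher with ZJU-37, whereas Sox10 was lower (log2 fold change -0.61, edgeR adjusted p = 0.0430). The cultures also held RNA of other cells. The summed level of 8 microglia markers was 908.6 to 1617 FPKM with DMSO and 673.9 to 1439 FPKM with ZJU-37, and that of 6 mature oligodendrocyte markers was 2621 to 5626 FPKM and 1135 to 2585 FPKM. Of the oligodendrocyte markers, 1 (Myrf, log2 fold change -1.69, edgeR adjusted p = 0.00208) was lower, and 4 were lower with the replicate number as a block. In DESeq2 4 passed, and 4 had an unadjusted p-value under 0.05 in edgeR. Of the microglia markers, 0 passed in edgeR or DESeq2, 0 had an unadjusted p-value under 0.05 and 2 (C1qa and Csf1r) were lower with the block. In whole cultures, fewer cells of a type and less RNA per cell cannot be told apart. Fibroblasts and mural cells are rich sources of fibrillin and elastin. Their 10 markers summed to 28.0 to 48.5 FPKM with DMSO and 18.8 to 39.9 FPKM with ZJU-37, with Rgs5 at 3 counts over all libraries. Of the 9 fibroblast and mural markers tested, 0 passed an adjusted p-value of 0.05 in edgeR, 0 had an unadjusted p-value under 0.05, 0 passed in DESeq2 and 2 (Col3a1 and Lum) were lower with the replicate number as a block. Astrocyte, neuron and endothelial markers summed to 314.1 to 476.9, 119.1 to 170.1 and 3.71 to 4.44 FPKM with DMSO and to 260.2 to 383.1, 107.7 to 150.1 and 2.71 to 3.51 FPKM with ZJU-37. Of the 8 astrocyte markers, 1 (Aldoc, log2 fold change -0.86, edgeR adjusted p = 0.00235) was lower, and 5 were lower with the block. Of 6 neuron and 3 tested endothelial markers, 0 passed in edgeR, and 2 (Syt1 and Stmn2) and 1 (Cdh5) were lower with the block. For comparison, 9.43% of all tested genes were higher and 5.58% lower in edgeR, and 16.2% and 15.9% with the block. The part of these marker shifts in the results that follow was not tested.

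Fibrillins polymerize into microfibrils, the beaded filaments on which elastin is laid down, and FBN1 and FBN2 are the genes of Marfan syndrome and of congenital contractural arachnodactyly. The latent TGF-β binding proteins (LTBPs) share the EGF-like and TB domains of fibrillins. They tether the inactive TGF-β complex to the matrix, except LTBP2, which does not bind it. Microfibrils also hold several bone morphogenetic proteins (BMPs), and BMP signals hold back the differentiation of OPCs into oligodendrocytes.

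Of the 10 genes, 8 passed the filter on low counts and entered the edgeR fit over 14670 genes. At an adjusted p-value under 0.05, 2 of the 8, Fbn2 and Ltbp4, were higher with ZJU-37, where 9.43% of all tested genes were higher and 5.58% lower. The same 2 genes had no overlap between the groups, as did 19.0% of all tested genes in the higher and 16.2% in the lower direction. With the replicate number as a block, 3 of the 8 passed, Fbn1 being added, where 16.2% of all tested genes were higher and 15.9% lower. Since the set was drawn from this comparison, nothing is read from these counts.

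**Figure D1:**
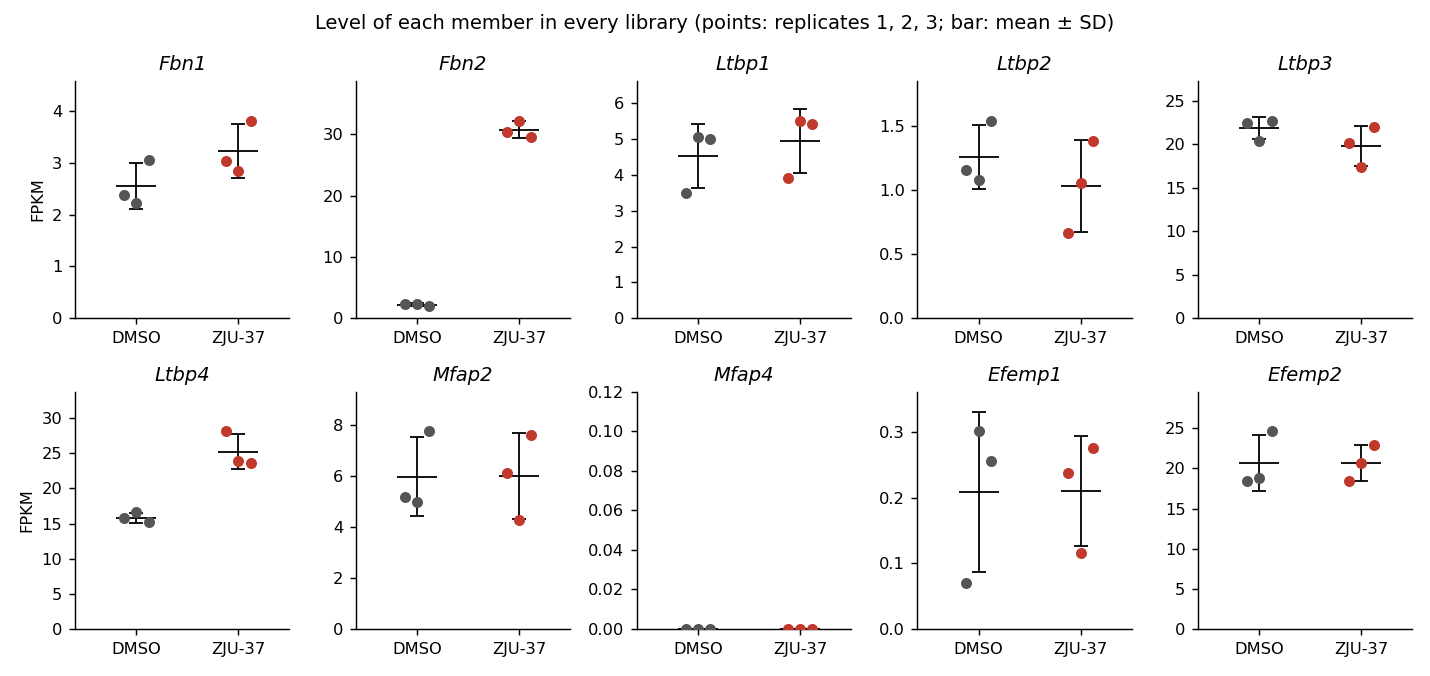
FPKM (y axis, linear from 0, a separate scale per gene) of the 10 genes in the 3 DMSO and 3 ZJU-37 libraries (x axis), with points in the order of replicates 1, 2 and 3 and a bar for the mean ± SD. The ZJU-37 libraries lie above all DMSO libraries for Fbn2 and Ltbp4, the groups overlap for 7 genes, and Mfap4 is listed at 0 in all libraries.

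Fbn2 (ENSRNOG00000043219), the fibrillin made mainly in development, is listed on the minus strand of chromosome 18 from 53068495 to 53181503, in a genome build that the table does not name. It had 255, 325 and 288 counts in DMSO replicates 1, 2 and 3 and 4354, 5252 and 5666 counts in ZJU-37 replicates 1, 2 and 3. Per length these were 2.36, 2.35 and 1.95 FPKM with DMSO and 30.3, 32.2 and 29.6 FPKM with ZJU-37. Every ZJU-37 library was far above every DMSO library, and the spread within each group was small. The group means were 2.22 ± 0.239 FPKM and 30.7 ± 1.36 FPKM (SD, n = 3 libraries each), a fold change of 13.9 in the edgeR fit (log2 fold change 3.79, standard error 0.10). Paired by replicate number (1, 2, 3), the libraries differed by 3.65, 3.79 and 3.93 on the log2 scale. By mean FPKM, Fbn2 moved from place 11976 among the 14670 tested genes with DMSO to place 3239 with ZJU-37.

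Fbn1 (ENSRNOG00000007302), the fibrillin of mature microfibrils, lies on the minus strand of chromosome 3, from 117569697 to 117766120. Its level was 2.37, 2.22 and 3.05 FPKM in DMSO replicates 1, 2 and 3 and 3.02, 2.83 and 3.81 FPKM in ZJU-37 replicates 1, 2 and 3. The groups overlapped, with replicate 3 highest in both. The log2 fold change was 0.34 with a standard error of 0.16, and 0.34 with a standard error of 0.07 with the replicate block, where the log2 differences within pairs were 0.33, 0.37 and 0.33. Fbn2 thus made up 49.9%, 51.5% and 38.9% of the summed fibrillin FPKM in the DMSO libraries and 90.9%, 91.9% and 88.6% in the ZJU-37 libraries. The summed level of both fibrillin genes was 4.77 ± 0.214 FPKM with DMSO and 33.9 ± 0.968 FPKM with ZJU-37 (SD, n = 3 libraries each).

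**Figure D2:**
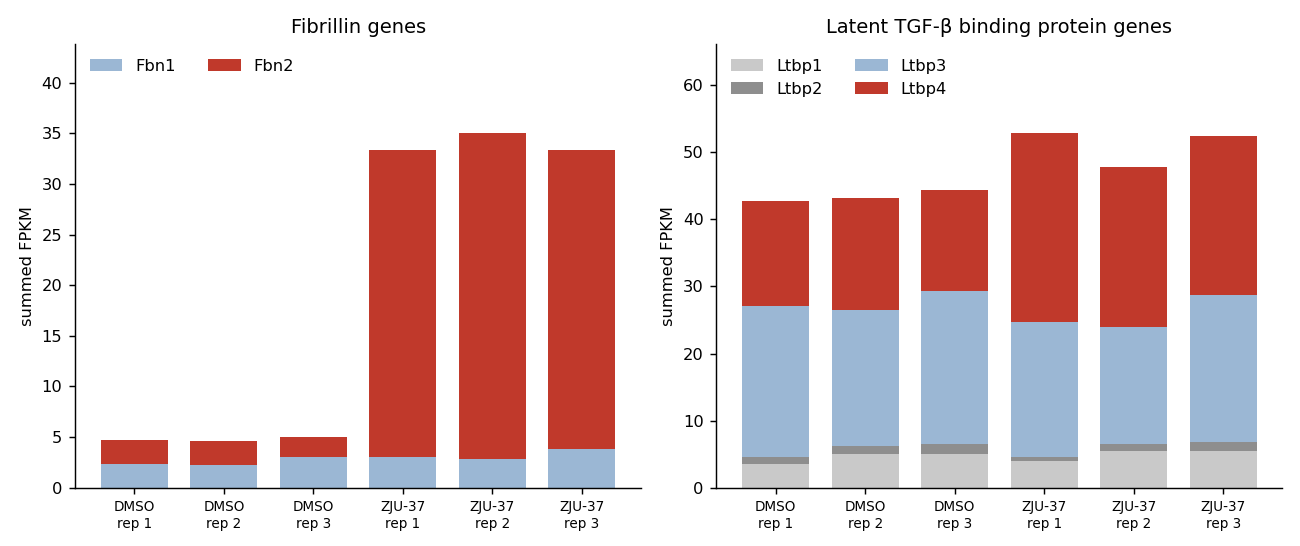
Stacked FPKM (y axis, linear from 0) of the 2 fibrillin genes (left) and the 4 LTBP genes (right) in each library (x axis). Fbn2 fills 88.6% to 91.9% of the fibrillin bar in the ZJU-37 libraries, and Ltbp4 grows from 34.2% to 38.5% of the LTBP bar with DMSO to 45.2% to 53.2% with ZJU-37.

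Short stretches upstream of the fibrillin genes are shown for the most and a less changed fibrillin gene because SMAD proteins, which carry the TGF-β signal, bind the letters CAGAC. The stretches are 30 bases each, taken from the 250 bases before the RefSeq start of the gene in the GRCr8 build and written along the gene's strand, with CAGAC or its reverse complement in capitals. The Fbn2 stretches lie at chr18:53902210-53902239 and chr18:53902071-53902100 and the Fbn1 stretch at chr3:133203561-133203590, all on the minus strand.
Fbn2, 235 bases before the start: cgcgggactgccGTCTGcaccgccgccgcg
Fbn2, 96 bases before the start: acgaagggtggtCAGACcctgactttattt
Fbn1, 188 bases before the start: ccttggggacttGTCTGtgttgcaggacag

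These 250 bases were held for 9 of the 10 genes. CAGAC on either strand was in the window of 6 of the 9 (Fbn1, Fbn2, Ltbp1, Ltbp2, Mfap2 and Efemp1) and in 42.9% of the 33469 windows of all genes, so that the letters are common. The Ltbp4 window held none. The GC box GGGCGG, searched on both strands, was in 6 of the 9 windows against 30.5% of all windows, but in neither fibrillin window. The AP-1 letters TGANTCA were in 1 window, that of Efemp1, against 6.34% of all. The E2F letters TTTNNCGC (4.11% of all windows) and the TATA letters TATAAA (12.9% of all windows), both searched on both strands, were in none of the 9. For Fbn1, Fbn2 and Ltbp4 the RefSeq start coincided with an ATG, so that these windows may lie within the transcribed region. A match of letters is not a bound site.

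The nearest tested gene to Fbn2 moved with it. AABR07072602.1, annotated as a long intergenic non-coding RNA, is listed on the same strand of chromosome 18 from 53216095 to 53272041, 34.6 kb upstream of the annotated Fbn2. It had 18, 26 and 19 counts in DMSO replicates 1, 2 and 3 and 343, 386 and 406 counts in ZJU-37 replicates 1, 2 and 3, a log2 fold change of 3.83 (standard error 0.17, edgeR adjusted p = 1.32e-04). Its counts were a nearly constant share of those of Fbn2, at 7.06%, 8.0% and 6.60% in the DMSO libraries and 7.88%, 7.35% and 7.17% in the ZJU-37 libraries. In the table Fbn2 spans 113.0 kb, and from its lower end to the far end of AABR07072602.1 there are 203.5 kb. RefSeq gives Fbn2 a span of 205.8 kb in GRCr8, whereas the table and RefSeq spans of Fbn1 were 196.4 and 196.6 kb. Whether both entries count pieces of one transcript was not tested.

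The other near neighbors of Fbn2 did not pass the test. On the downstream side Slc12a2, Prrc1 and AC105604.1 had log2 fold changes of -0.33, 0.08 and -0.09 (edgeR adjusted p = 0.515, 0.640 and 0.853). On the upstream side, beyond AABR07072602.1, Slc27a6 and AC109037.1 had log2 fold changes of 0.78 and 0.65 (edgeR adjusted p = 0.183 and 0.300) at mean levels of 0.231 and 1.74 FPKM. AC104053.2, which lies inside the Fbn2 span on the other strand, had 11 counts over all libraries. Of the genes that overlap other members on the opposite strand, AABR07053635.1 at Fbn1 had 8 counts and LOC100912585 at Mfap4 had 3 counts over all libraries. The preparation kit did not keep strand, so reads of overlapping genes on opposite strands cannot be told apart.

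**Figure D3:**
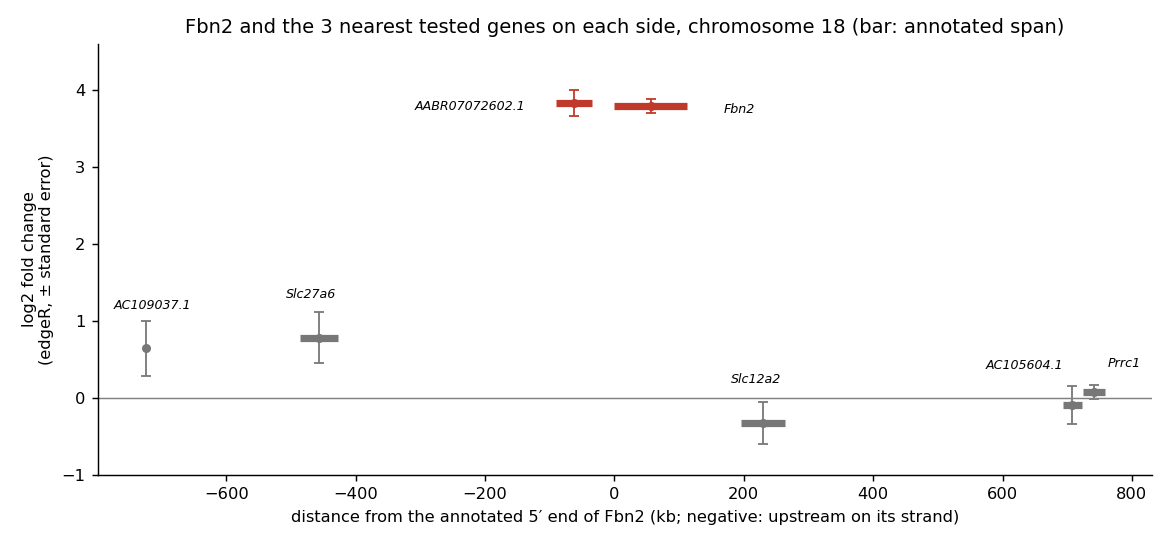
Log2 fold change of ZJU-37 over DMSO (y axis, edgeR, error bars are ± the standard error) of Fbn2 and the 3 nearest tested genes on each side against the distance from its annotated 5′ end in kb (x axis, negative is upstream on its strand), with thick bars for annotated spans. Fbn2 and AABR07072602.1 stand at 3.79 and 3.83, and the other 5 genes lie between -0.33 and 0.78.

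Over the 6 libraries, the genes whose log2 CPM followed that of Fbn2 most closely were Pa2g4, Bves, Scfd2, S100a10 and Raly, with Pearson's r of 0.9998, 0.9996, 0.9995, 0.9994 and 0.9992 among genes averaging 1 CPM or more. Genes with small and with large changes stood side by side, at log2 fold changes of 0.37, 1.52, 1.48, 1.45 and 0.37 in that order. The libraries form 2 clusters, one per group, and r is given only to order the genes.

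Ltbp4 (ENSRNOG00000020871), which binds latent TGF-β and is needed for elastic fibers, lies on the minus strand of chromosome 1, from 84118046 to 84150084. Its level was 15.7, 16.6 and 15.2 FPKM in DMSO replicates 1, 2 and 3 and 28.1, 23.9 and 23.7 FPKM in ZJU-37 replicates 1, 2 and 3. Every ZJU-37 library was above every DMSO library. The fold change was 1.60 (log2 fold change 0.67, standard error 0.08), and paired by number the libraries differed by 0.82, 0.54 and 0.65 on the log2 scale.

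Ltbp3 (ENSRNOG00000020813), another carrier of latent TGF-β, lies on the plus strand of chromosome 1, from 221099998 to 221116096. Its level was 22.4, 20.4 and 22.7 FPKM in DMSO replicates 1, 2 and 3 and 20.2, 17.3 and 21.9 FPKM in ZJU-37 replicates 1, 2 and 3. The groups overlapped, and the log2 fold change was -0.14 with a standard error of 0.10. The ratio of Ltbp4 to Ltbp3 FPKM was 0.702, 0.817 and 0.669 in the DMSO libraries and 1.40, 1.38 and 1.08 in the ZJU-37 libraries. Ltbp3 was thus the most abundant LTBP transcript in each DMSO library and Ltbp4 in each ZJU-37 library.

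Ltbp1 (ENSRNOG00000033090), the first LTBP described, lies on the minus strand of chromosome 6, from 21203502 to 21600451. Its level was 3.49, 5.07 and 5.02 FPKM in DMSO replicates 1, 2 and 3 and 3.93, 5.52 and 5.44 FPKM in ZJU-37 replicates 1, 2 and 3. Replicate 1 was lowest in both groups, and the groups overlapped, with a log2 fold change of 0.14 and a standard error of 0.19. Ltbp2 (ENSRNOG00000012094), which binds fibrillin but no TGF-β, lies on the minus strand of the same chromosome, from 108500112 to 108596569. Its level was 1.15, 1.08 and 1.54 FPKM with DMSO and 0.665, 1.06 and 1.38 FPKM with ZJU-37, again with overlap and with replicate 3 highest in both groups. The log2 fold change of Ltbp2 was -0.27 with a standard error of 0.29. The summed level of the 4 LTBP genes was 43.5 ± 0.879 FPKM with DMSO and 51.0 ± 2.85 FPKM with ZJU-37 (SD, n = 3 libraries each).

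Mfap2 (ENSRNOG00000008257) encodes a small glycoprotein on the beads of microfibrils and lies on the plus strand of chromosome 5, from 159534202 to 159539750. Its level was 5.18, 4.98 and 7.75 FPKM in DMSO replicates 1, 2 and 3 and 6.10, 4.26 and 7.61 FPKM in ZJU-37 replicates 1, 2 and 3. The groups overlapped, with a log2 fold change of 0.01 and a standard error of 0.28. Mfap4 (ENSRNOG00000002382), whose product binds collagen and elastin, lies on the plus strand of chromosome 10, from 47765432 to 47768483 and had 0 counts in all 6 libraries. At these depths a count of 0 allows a level of up to 0.124 CPM in the deepest and 0.215 CPM in the shallowest library. Of its span, 1804 bases are overlapped by LOC100912585 on the opposite strand, and whether reads there went uncounted was not tested.

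Efemp2 (ENSRNOG00000020587), a fibulin that brings lysyl oxidase to elastin, lies on the plus strand of chromosome 1, from 220854403 to 220861420. Its level was 18.5, 18.8 and 24.6 FPKM in DMSO replicates 1, 2 and 3 and 18.4, 20.7 and 22.9 FPKM in ZJU-37 replicates 1, 2 and 3. The ZJU-37 values lay inside or next to the DMSO range, with a log2 fold change of 0.01 and a standard error of 0.14. Efemp1 (ENSRNOG00000003553), a related fibulin, lies on the plus strand of chromosome 14, from 113202419 to 113295014. It had 2, 11 and 10 counts with DMSO and 9, 5 and 14 counts with ZJU-37, too few for the filter on low counts.

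**Figure D4:**
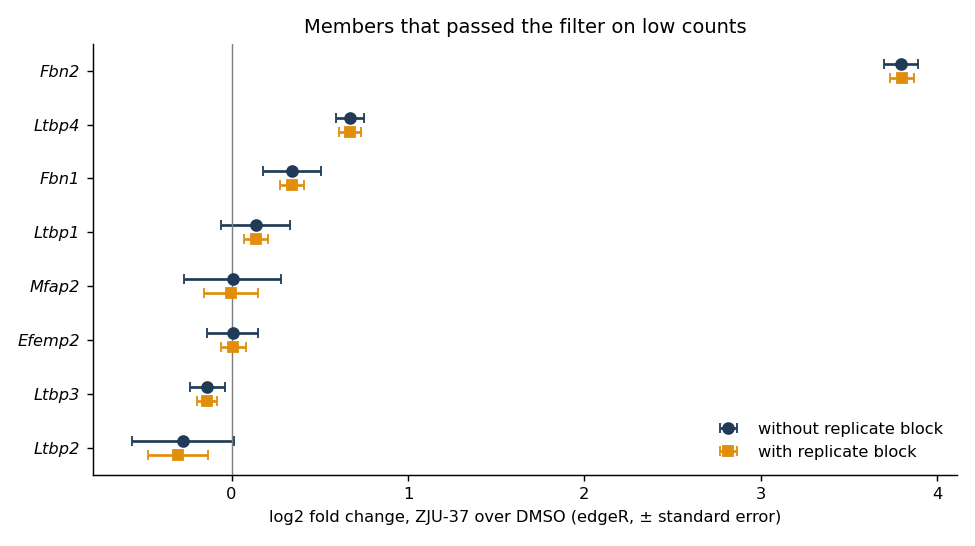
Log2 fold change of ZJU-37 over DMSO (x axis, edgeR, error bars are ± the standard error) of the 8 genes that passed the filter on low counts (y axis), without (circles) and with (squares) the replicate number as a block. The values run from -0.27 for Ltbp2 to 3.79 for Fbn2 without the block, and the error bars with the block are shorter for all 8.

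Ordered by mean FPKM in DMSO-treated OPCs, the genes ran Ltbp3, Efemp2, Ltbp4, Mfap2, Ltbp1, Fbn1, Fbn2, Ltbp2, Efemp1 and Mfap4, from 21.8 FPKM to 0 FPKM. Between neighbors in that order the libraries overlapped for Ltbp3 and Efemp2, for Mfap2 and Ltbp1, and for Fbn1 and Fbn2. With ZJU-37 the order began with Fbn2, Ltbp4, Efemp2 and Ltbp3, at 30.7, 25.2, 20.7 and 19.8 FPKM, and went on in the DMSO order. There the libraries overlapped for Efemp2 and Ltbp3 and for Mfap2 and Ltbp1.

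Of the 8 tested genes, 5 (Fbn1, Ltbp2, Ltbp3, Mfap2 and Efemp2) had their highest CPM in replicate 3 of both groups, as 12.7% of all tested genes did. Ltbp1 was highest in replicate 2 of both groups. Together 6 of the 8 were highest at the same number in both groups, and so were 53.7% of all tested genes, so that a shared number was common. The fibroblast and mural markers also summed highest in replicate 3 of both groups, at 31.0, 28.0 and 48.5 FPKM in DMSO replicates 1, 2 and 3 and 18.8, 30.7 and 39.9 FPKM in ZJU-37 replicates 1, 2 and 3. So did the astrocyte markers, at 431.5, 314.1 and 476.9 FPKM with DMSO and 326.8, 260.2 and 383.1 FPKM with ZJU-37, and the endothelial markers. The OPC, oligodendrocyte, microglia and neuron markers did not. The part of any of these cells in the replicate pattern was not tested. Fbn2 and Ltbp4 peaked at different replicate numbers in the 2 groups. Their coefficients of variation within a group were 10.6% and 4.15% with DMSO and 4.76% and 8.82% with ZJU-37. Those of the other 6 tested genes ran from 6.33% (Ltbp3) to 26.1% (Mfap2) with DMSO and from 11.8% (Ltbp3 and Efemp2) to 35.4% (Ltbp2) with ZJU-37. A small spread favors a call, and Fbn2 and Ltbp4 are set apart because they were called. The contrast in spread was thus partly fixed in advance, and nothing is read from it.

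Proteins that build or modify microfibrils and elastic fibers were examined as a list of 31 genes, of which 29 were found and 27 tested. Of the 27, 4 were higher and 1 lower at an adjusted p-value under 0.05, with a median log2 fold change of -0.13 against -0.03 over all tested genes, and 5 were higher and 6 lower with the replicate block. Beside these counts, 9.43% of all tested genes were higher and 5.58% lower, and 16.2% and 15.9% with the block. Emilin1, an elastin-associated glycoprotein, rose from 8.29 ± 0.861 FPKM to 17.1 ± 1.14 FPKM (± SD over 3 libraries per group, here and for the genes that follow; log2 fold change 1.05, standard error 0.10, edgeR adjusted p = 8.90e-04). Fbln1, which codes for a fibulin of elastic fibers, rose from 3.34 ± 0.0883 FPKM to 5.06 ± 0.575 FPKM (log2 fold change 0.60, standard error 0.11, edgeR adjusted p = 0.0141). Adamts10, a microfibril-binding member of the ADAMTS family, had a log2 fold change of 0.44 (standard error 0.10, edgeR adjusted p = 0.0256). B3glct, which adds glucose to fucose on thrombospondin repeats, had a log2 fold change of 0.46 (standard error 0.11, edgeR adjusted p = 0.0306). Without 1 library, Fbln1 lost its call in 3 of the 6 fits (without DMSO replicate 2 or 3 or ZJU-37 replicate 3), and the edgeR adjusted p-value was then 0.0505 to 0.0571. Adamts10 lost its call in 5 of the 6 fits (all but the one without DMSO replicate 3) at 0.0550 to 0.0975, and B3glct in 5 (all but the one without ZJU-37 replicate 2) at 0.0722 to 0.104.

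Versican, a proteoglycan that binds fibrillin, went the other way. Its gene Vcan fell from 36.9 ± 4.85 FPKM to 15.1 ± 3.37 FPKM (log2 fold change -1.29, standard error 0.17, edgeR adjusted p = 0.00378). The most abundant gene of the list was Fn1, which codes for fibronectin, on which fibrillin is assembled, at 53.2 ± 7.82 FPKM with DMSO and 46.7 ± 9.66 FPKM with ZJU-37. Its log2 fold change was -0.18 (edgeR adjusted p = 0.583, and 0.0281 with the replicate block). The proteoglycan gene Bgn stood at 24.8 ± 6.37 and 21.1 ± 5.69 FPKM, with a log2 fold change of -0.23 (edgeR adjusted p = 0.644, and 0.0168 with the block). Elastin itself (Eln), named after its values were seen, stood at 3.61 ± 0.770 and 4.66 ± 0.555 FPKM, with a log2 fold change of 0.37 (edgeR adjusted p = 0.232, and 0.0231 with the block).

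**Figure D5:**
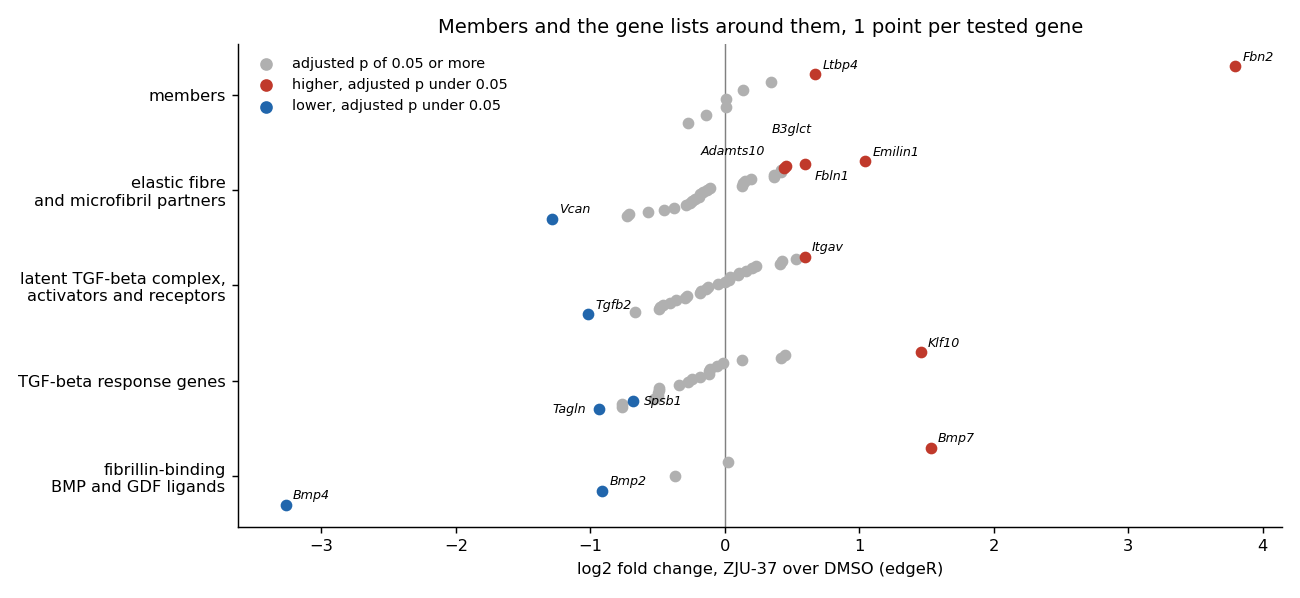
Log2 fold change of ZJU-37 over DMSO (x axis, edgeR) of each tested gene (points) of the 10-gene set and of the 4 lists around it (y axis), colored by the adjusted p-value in the fit over all genes. Fbn2 lies farthest to the right and Bmp4 farthest to the left, and gray points are genes that did not pass.

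Since LTBPs other than LTBP2 carry latent TGF-β, its ligands, the integrins and proteases that free it, and its receptors and SMADs were examined as a list of 27 genes, of which 26 were tested. Of these, 1 was higher and 1 lower, with a median log2 fold change of -0.09 against -0.03 over all tested genes, and with the replicate block 5 were higher and 8 lower. The shares of all tested genes were 9.43% higher and 5.58% lower, and 16.2% and 15.9% with the block. Itgav, the αv integrin subunit that binds latent TGF-β and fibrillin, rose from 31.4 ± 1.45 FPKM to 47.3 ± 3.30 FPKM (log2 fold change 0.60, standard error 0.07, edgeR adjusted p = 0.00242). Tgfb2 fell from 9.38 ± 1.80 FPKM to 4.63 ± 0.149 FPKM (log2 fold change -1.01, standard error 0.14, edgeR adjusted p = 0.00407). Tgfb1, the most abundant of the 3 ligand genes, stood at 47.3 ± 13.8 FPKM with DMSO and 36.5 ± 12.5 FPKM with ZJU-37, with a log2 fold change of -0.37 (edgeR adjusted p = 0.532, and 0.00156 with the replicate block). Itgb1, a partner of αv, stood at 149.0 ± 1.22 and 149.1 ± 9.76 FPKM (edgeR adjusted p = 0.980). The membrane protease gene Mmp14 stood at 89.4 ± 22.7 and 72.6 ± 25.0 FPKM (log2 fold change -0.30, edgeR adjusted p = 0.602, and 0.0107 with the block).

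Genes that respond to TGF-β in many cells were examined as a list of 22, all tested, of which Ltbp2 is one. Of the 22, 1 was higher and 2 lower (3 and 5 with the replicate block), with a median log2 fold change of -0.26 against -0.03 over all tested genes. All tested genes had shares of 9.43% higher and 5.58% lower (16.2% and 15.9% with the block). Klf10, an early TGF-β-induced zinc finger factor, rose from 7.64 ± 0.561 FPKM to 20.9 ± 2.71 FPKM (log2 fold change 1.46, standard error 0.12, edgeR adjusted p = 5.76e-04). Tagln, a smooth muscle actin-binding protein, fell from 24.2 ± 2.34 FPKM to 12.6 ± 2.95 FPKM (log2 fold change -0.93, standard error 0.18, edgeR adjusted p = 0.0170), and lost its call without DMSO replicate 1 or 3 or ZJU-37 replicate 2 (adjusted p = 0.0588 to 0.0643). Spsb1, which limits TGF-β receptor levels, fell from 28.8 ± 2.88 FPKM to 17.9 ± 2.06 FPKM (log2 fold change -0.68, standard error 0.12, edgeR adjusted p = 0.00994). Among the most abundant of the list, Junb had a log2 fold change of -0.25 (edgeR adjusted p = 0.542). The basement membrane collagen gene Col4a1 had 0.45 (edgeR adjusted p = 0.0652, and 2.04e-04 with the block), and the protease inhibitor gene Timp1 had 0.42 (edgeR adjusted p = 0.0810, and 0.0108 with the block).

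Of 9 genes for BMP and GDF ligands that bind fibrillin or are held by microfibrils, 5 were tested, and 1 was higher and 2 were lower (1 and 3 with the block), with a median log2 fold change of -0.37. Among all tested genes, 9.43% were higher and 5.58% lower (16.2% and 15.9% with the block). Bmp4, which turns OPCs towards astrocytes in culture, had 47.1, 19.4 and 26.7 FPKM in DMSO replicates 1, 2 and 3 and 4.01, 2.55 and 3.13 FPKM in ZJU-37 replicates 1, 2 and 3. All ZJU-37 libraries were below all DMSO libraries, and the DMSO libraries were widely spread. Its log2 fold change was -3.27 (standard error 0.37, edgeR adjusted p = 0.00227). Bmp7 rose from 0.888 ± 0.125 FPKM to 2.57 ± 0.602 FPKM (log2 fold change 1.53, standard error 0.24, edgeR adjusted p = 0.00664). Bmp2 fell from 1.24 ± 0.0615 FPKM to 0.653 ± 0.109 FPKM (log2 fold change -0.91, standard error 0.20, edgeR adjusted p = 0.0275), and lost its call in each of the 6 fits without 1 library (adjusted p = 0.0618 to 0.0949). Bmp6, the most abundant with ZJU-37, stood at 23.9 ± 4.98 and 18.4 ± 6.02 FPKM (log2 fold change -0.37, edgeR adjusted p = 0.433, and 0.00882 with the block). Gdf11 stood at 13.1 ± 1.07 and 13.2 ± 0.421 FPKM (edgeR adjusted p = 0.888).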

How the data were processed

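The authors processed the reads with in-house scripts and counted them per gene with FeatureCounts v1.5.0-p3. The submitters' processing notes also name HISAT2 2.0.5 and StringTie 1.3.3b. The genome build is not given in the sources used here. The deposited table holds raw counts, which were neither normalized nor filtered, and FPKM values made by the authors from counts, gene length and a library total that was 0.979 to 1.03 times the summed counts. Its group means, fold changes and p-values come from the authors' own DESeq2 comparison and were not used.

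Low-count genes were removed by filterByExpr, and the rest were scaled by TMM and tested with edgeR 4.0.16 (quasi-likelihood, robust) in R 4.3.3 over all genes, with Benjamini-Hochberg adjustment at 0.05. Library totals ran from 13935865 to 24097927 counts. Standard errors were derived from the F statistics. Same-numbered libraries deviated together across genes (r = 0.393, 0.312 and 0.329, against -0.271 to -0.0116 for other pairings). The main fit did not use this pairing. A fit with the replicate number as a block, which did, is given beside it where it changed a call. Alternatives were DESeq2 1.42.0, limma 3.58.1 (voom and log2 of FPKM plus 1 or 0.1), other scalings and filters, and leaving out each library. The fits were also run on simulated counts that held no replicate effect. That run cannot decide between the fits with and without the block, and nothing is read from it. The chi-square per degree of freedom between libraries of a group was 11.3 or more, so none was a duplicate.

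The members and lists were chosen with earlier results of these data known. Named genes are all 10 members, per list up to 6 genes past the threshold by size of change and the 3 most abundant, the 5 genes most correlated with Fbn2, its 3 nearest tested neighbors per side, and genes overlapping a member, of which 1 is not reported here. Thsd4, Hspg2 and Pecam1 were not analysed here. Poglut2 and Poglut3 were matched by their older names Kdelc1 and Kdelc2. Upstream sequences are from RefSeq (GRCr8), matched by symbol.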

Additional observations from a re-analysis of the deposited data

How the results depend on the processing

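Fbn2 and Ltbp4 were past an adjusted p-value of 0.05 in all 15 alternatives run. Their log2 fold changes ran from 3.30 (limma on log2(FPKM + 1), a scale that understates low genes) to 3.84 and from 0.62 to 0.74. Fbn1 ran from 0.22 to 0.50 and passed with the replicate block alone, and the other 5 tested members passed in none. The alternatives reuse the libraries in which Fbn2 was picked for its p-value, so its passes are no independent support. The sign of the log2 fold change of Mfap2 turned in 7 of the 15 alternatives, that of Efemp2 in 3 and that of Ltbp1 in 1. With the replicate block the count of all genes past the threshold went from 2201 to 4705, that of the elastic fiber and microfibril list from 5 to 11, of the TGF-β complex list from 2 to 13 and of the TGF-β response list from 3 to 8. The block also added the calls of Fbn1, Fn1, Bgn, Eln, Tgfb1, Mmp14, Col4a1, Timp1 and Bmp6 among the named members and list genes. Among the named markers it added those of C1qa, Csf1r, Col3a1, Lum, Syt1, Stmn2 and Cdh5. With DESeq2 the TGF-β complex list had 4 genes and the response list 7. With each library left out in turn, all genes past the threshold numbered 1306 (without DMSO replicate 2) to 1927, with 1351 without ZJU-37 replicate 3. Those of the elastic fiber list numbered 2 (without either of these libraries) to 4, of the TGF-β complex list 2 to 3, of the response list 2 to 4 and of the BMP and GDF list 2 in each fit against 3 with all libraries. The remaining counts of all genes, the members and the 4 lists, with both directions together, moved by at most 1.5 times. By direction, all genes went from 1383 higher and 818 lower to 977 and 374 without ZJU-37 replicate 3. The scaling moved the median log2 fold change of all tested genes by less than 0.1. The causes of these shifts were not tested. Efemp1 and Mfap4 had too few counts to compare, and the reason was not tested.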
